A study of Caenorhabditis elegans with 2 samples.

Results

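Transfer RNA (tRNA) genes that lie between protein-coding genes were examined for peaks of chromatin immunoprecipitation with sequencing (ChIP-seq) of DAF-8, a SMAD protein of Caenorhabditis elegans. A peak was taken as a member when its summit, the position of highest signal, lay within 200 bp of a tRNA gene that overlapped no protein-coding gene on either strand. This held for 305 of 101032 ranked peaks. Of the 612 nuclear tRNA genes annotated by Ensembl, 319 lay between protein-coding genes and 293 inside them. The 305 peaks belonged to 262 of the 319 genes, 219 with 1 peak and 43 with 2. Of the 57 genes with no peak of their own, 18 had a ranked summit in their window that lay nearer to a neighbouring tRNA gene, so that 39 genes had no ranked summit at all. Of the 319 genes, 174 overlapped another noncoding gene or a pseudogene, which the rule allowed.

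The worms were of strain OP790. They carried the transgene wgIs790, which joins daf-8 to TY1, EGFP and 3xFLAG tags and holds a working unc-119 gene, in animals with the unc-119 allele tm4063. Whole L4 larvae aged 47 hours were used, grown from L1 larvae that had been starved after bleaching. Chromatin was sonicated and precipitated with an antibody against GFP, in 2 biological replicates that form 1 group. Both replicates carried the same alleles and tag. No strain without the tag and no input library was analysed here, so that recovery through DAF-8 and recovery by other routes cannot be told apart. Peaks come from whole animals, where binding in few cells and weak binding in many cells cannot be told apart either. The labels do not say how the cultures of the replicates were separated.

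DAF-8 is a receptor-regulated SMAD, a protein that receptors of the TGF-beta family phosphorylate and that then acts in the nucleus on target genes. In C. elegans it belongs to the pathway of the ligand DAF-7, which governs the choice between reproductive growth and the dauer larva. tRNA genes are short and are transcribed by RNA polymerase III, which also makes 5S ribosomal RNA and other small RNAs. Their promoter lies inside the gene, in a pair of blocks called the A box and the B box that the factor TFIIIC contacts, while TFIIIB sits just upstream of the start. Transcription ends at a run of T downstream. Each tRNA carries 1 amino acid to the ribosome, and most kinds are made from many gene copies.

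The sequences below show 9 called genes, the strongest of the 11 called genes that have at most 3 copies in the genome, counting themselves. F35A5.t1 and C53C7.t2 are the other two. They also show 3 genes that differ from one of these at 1 or 2 bases and were not called. A called member had an irreproducible discovery rate (IDR) of at most 0.01, which scores how far a peak's rank in one replicate fails to recur in the other. Sequences are from RefSeq for WBcel235, the same assembly as ce11, read 5′ to 3′ on the strand of the gene. Capitals mark matches to loose forms of the A box core, TNGNNNAG, and of the B box core, GNTCNANNC.

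The first are a valine gene at chrX:13307034-13307106 on the plus strand and 3 leucine genes, at chrX:15742050-15742133 (plus), chrX:13665555-13665673 (plus) and chrX:11757831-11757914 (minus). Leucine tRNAs have a long variable arm. C04A11.t1, of 119 bp, was the longest of the called genes, while the leucine genes ZK678.t1 and C40H5.t1 had 84 bp each. The source of the greater length of C04A11.t1 was not examined.
R04D3.t2: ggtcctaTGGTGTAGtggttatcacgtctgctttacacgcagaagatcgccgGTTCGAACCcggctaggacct
ZK678.t1: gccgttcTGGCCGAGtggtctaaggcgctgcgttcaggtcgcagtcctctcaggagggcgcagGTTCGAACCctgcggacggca
C04A11.t1: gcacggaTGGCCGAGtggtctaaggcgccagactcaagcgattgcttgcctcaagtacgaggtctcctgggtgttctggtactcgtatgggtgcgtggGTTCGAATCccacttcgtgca
C40H5.t1: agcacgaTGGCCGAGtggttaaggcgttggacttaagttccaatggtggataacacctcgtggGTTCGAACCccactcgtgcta

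A further pair of called genes has no identical copy: an alanine gene at chrV:9318202-9318273 on the plus strand and a tryptophan gene at chrX:14228920-14228991 on the minus strand. In rtw-5 these letters of the A box core were not found.
F44A2.t1: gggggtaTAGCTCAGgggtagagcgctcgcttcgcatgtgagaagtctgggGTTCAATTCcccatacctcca
rtw-5: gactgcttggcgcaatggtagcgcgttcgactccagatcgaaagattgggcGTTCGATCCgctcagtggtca

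The remaining ones are set in pairs of a called gene and a gene that differs from it at few bases and was not called. These are examples, since each of the 3 called genes also has other relatives at least as close. Values of these are given below, in part as a range. The tyrosine genes K09A11.t1 (chrX:13264683-13264766, minus) and R11.t2 (chrX:16209228-16209311, minus) differ at 1 base. The threonine genes F55G7.t2 (chrX:11935080-11935151, minus) and Y97E10C.t1 (chrV:7730654-7730725, minus) differ at 2 bases, as do the aspartate genes C06G1.t4 (chrX:16617892-16617963, minus) and Y54G2A.t3 (chrIV:2805627-2805698, plus).
K09A11.t1: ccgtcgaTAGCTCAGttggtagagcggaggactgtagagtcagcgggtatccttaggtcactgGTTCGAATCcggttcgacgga
R11.t2: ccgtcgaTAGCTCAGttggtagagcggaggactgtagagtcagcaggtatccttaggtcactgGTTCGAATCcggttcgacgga
F55G7.t2: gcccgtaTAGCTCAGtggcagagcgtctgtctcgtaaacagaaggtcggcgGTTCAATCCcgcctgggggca
Y97E10C.t1: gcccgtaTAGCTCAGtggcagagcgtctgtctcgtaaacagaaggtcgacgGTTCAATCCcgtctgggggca
C06G1.t4: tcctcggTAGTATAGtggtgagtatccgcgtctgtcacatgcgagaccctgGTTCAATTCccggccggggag
Y54G2A.t3: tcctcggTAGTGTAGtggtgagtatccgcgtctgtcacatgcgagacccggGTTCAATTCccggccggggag

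The strongest member, at the glycine gene M02F4.t1, had its summit upstream of the gene rather than in it. The 60 bases before that gene, at chrX:3036104-3036163 on the plus strand, are shown with the base at the summit in capitals.
M02F4.t1 upstream: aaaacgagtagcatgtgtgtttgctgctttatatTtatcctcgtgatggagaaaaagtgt

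Peaks at these tRNA genes were stronger than most ranked peaks, and a small part of them was called. The signal of a peak is the value the authors deposited for it, here from the reads of both replicates pooled. The sources used here do not give its scaling, so it is read only within a list. Members had a median signal of 32.8, with quartiles of 19.5 and 48.8, against 17.01 for all ranked peaks, with quartiles of 10.5 and 24.2. The median was 1.93-fold that of all peaks. Members ranged from 2.45 to 126, so that some were among the weakest of the list. Of the 305, 236 lay above the median of all ranked peaks, or 77.4%.

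Of the 305 members, 30 were called, or 9.84% (95% Wilson interval 6.98 to 13.7%), against 0.259% of all ranked peaks, where 262 were called. The 30 belonged to 30 different genes, 9.40% of the 319 (6.67 to 13.1%). A further 5 genes had a called summit in their window that lay nearer to a neighbour, for 35 genes in all. At an IDR of 0.001, 2 members were called against 0.0515% of all ranked peaks, and at 0.05, 67 were, or 21.97%, against 0.807%. All 30 members called at 0.01 were also in the list that the authors had thresholded, where they made up 12.5% of its 240 peaks. Called members had signals from 49.9 to 126 with a median of 73.3, and members that were not called reached 69.8 with a median of 30.01. None of the 10 strongest ranked peaks was a member, while 11 of the 100 strongest and 88 of the 1000 strongest were. The intervals cover counting error over peaks and genes only, and the lists hold no read counts, so the depth behind them is unknown.

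**Figure D1:**
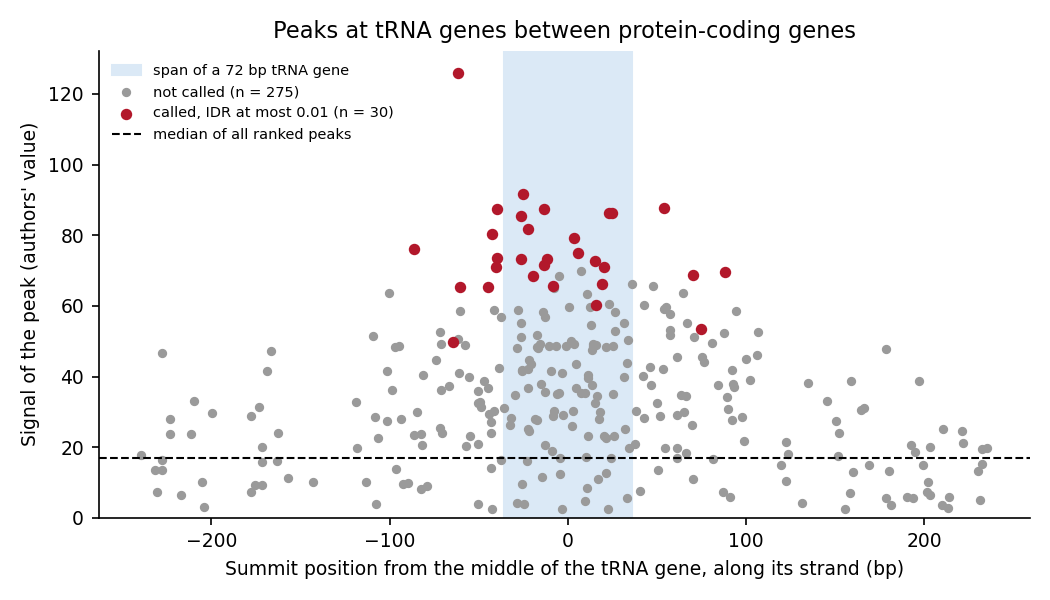
Signal of each of the 305 members against the signed distance of its summit from the middle of the tRNA gene along the gene's strand, in bp, with called members in red, the rest in grey, the span of a 72 bp gene shaded and the median of all ranked peaks dashed. The called members sit between -86.5 and 88.5 bp, and the highest, at M02F4.t1, has a signal of 126 at -61.5 bp.

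Called summits gathered on the gene itself. Of the 30, 19 lay inside the tRNA gene, 7 upstream of it and 4 downstream, and 22 were within 50 bp of its middle. Their median offset from the middle was -13.5 bp, with quartiles of -39.5 and 18.25 bp, where a negative value is upstream. Inside the gene, 11 lay in the 5′ part and 8 in the 3′ part. Summits were not compared with the positions of the A box or the B box. Of the 275 members that were not called, 101 lay inside the gene, 82 upstream and 92 downstream. The rule confines all of them to 200 bp from the gene, so the offsets are read as a description.

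Signal was lower at summits farther from the gene. The median was 41.8 for the 120 summits inside a gene, 36.3 for the 83 within 1 to 50 bp and 32.8 for the 39 within 51 to 100 bp. Beyond that it was 16.2 at 101 to 150 bp (29 summits) and 15.9 at 151 to 200 bp (34 summits), close to the 17.01 of all ranked peaks. The called members numbered 19 inside, 9 within 50 bp and 2 within 100 bp, and there were 0 farther out, where a count of 0 of 34 in the outermost of these bins allows a share of up to 8.82%. Past the 200 bp limit the medians were 10.6 at 201 to 300 bp, 12.4 at 301 to 500 bp, 18.0 at 501 to 1000 bp and 17.4 at 1001 to 2000 bp. Of the 453 peaks in that last bin 6 were called, or 1.32%.

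**Figure D2:**
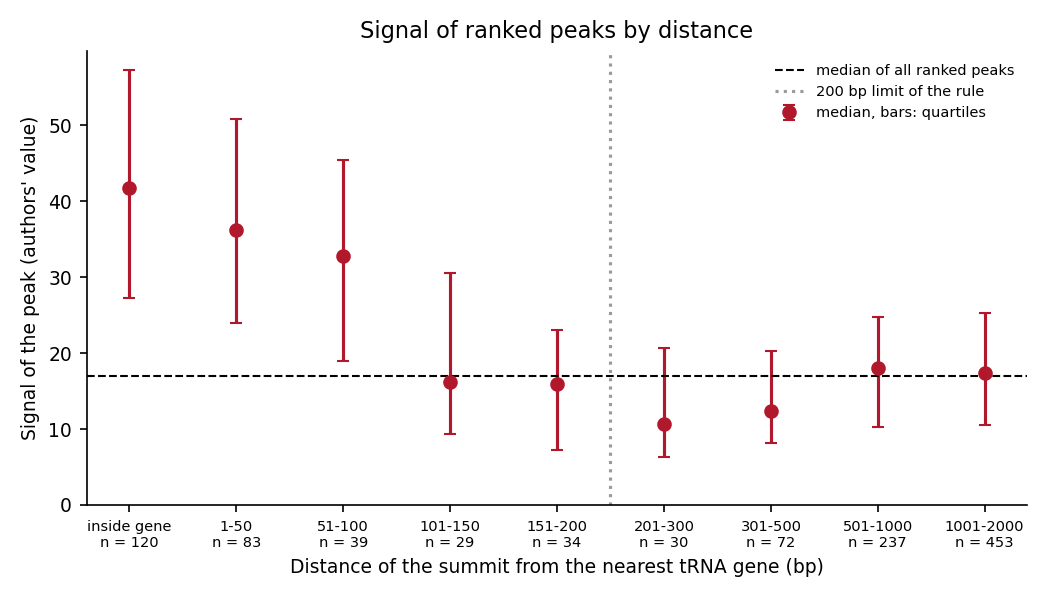
Signal of ranked peaks by distance of the summit from the nearest tRNA gene between protein-coding genes, in bins of bp, as medians (points) with quartiles (bars), with the median of all ranked peaks dashed and the 200 bp limit dotted. Medians go from 41.8 inside the gene to 10.6 at 201 to 300 bp and return to 18.0 at 501 to 1000 bp.

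Some of the weaker members were peaks listed more than once. Of the members, 52 rested on the same pair of replicate peaks as another ranked peak, and 21 of them were the weaker of these, with a median signal of 5.74 and a median distance of 90 bp. Among all ranked peaks, 10.6% were such weaker peaks, so they are not particular to these members. None of the 30 called members was such a weaker peak. Without the 21, the median of the remaining 284 members was 35.2, and that of the 53 beyond 100 bp was 19.5. No median of all ranked peaks without such peaks stands beside these values. Just inside the distance limit lay F08F1.t3 (leucine, 199 bp, signal 17.7), F52E10.t3 (glutamate, 197 bp, 19.5) and Y75D11A.t2 (arginine, 196 bp, 15.3). Just outside lay K02E11.t1 (glutamine, 201 bp, 10.1), F46G11.t1 (proline, 202 bp, 6.09) and a second peak of T07H6.t2 (alanine, 206 bp, 14.9).

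The called genes served 16 of the 20 amino acids. In what follows the signal is that of the pooled reads, and the values of replicate 1 and replicate 2 are those of the 2 peaks that the list compares, with their mean and SD (n = 2). Glycine had the most called genes, 4 of 28, which all belong to 1 set of identical copies. M02F4.t1 (chrX:3036164-3036235, plus strand) had the highest signal of all members, 126, with 72.7 in replicate 1 and 60.4 in replicate 2 (66.5 ± 8.75). Its summit lay 26 bp upstream of the gene, in the sequence shown above. A glutamate gene on the other strand, M02F4.t2, lies in the same window, across a gap of 116 bp. T10B10.t2 (chrX:15200817-15200888) had 80.4, with 39.0 and 44.6 (41.8 ± 3.96), and another glycine gene, T10B10.t1, stood 118 bp from it. T04D3.t3 on chromosome I had 73.7, with 33.7 and 41.4 (37.5 ± 5.42), and Y43D4A.t1 on chromosome IV had 69.5, with 33.7 and 31.5 (32.6 ± 1.58). M02F4.t1 was above the other 3 in both replicates.

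Among genes for aliphatic amino acids, leucine had 3 of 19 called, alanine 2 of 19, valine 2 of 17 and isoleucine 1 of 11. The leucine genes were close to each other in signal. ZK678.t1 had 87.4, with 42.1 in replicate 1 and 46.9 in replicate 2 (44.5 ± 3.40). C04A11.t1 had 86.4, with 44.5 and 39.6 (42.1 ± 3.46), and C40H5.t1 had 85.5, with 47.9 and 35.6 (41.8 ± 8.64). The order of these 3 genes differed between the replicates, so they are not ranked here. The alanine gene T08A9.t1 (chrX:7323753-7323824) had 87.3, with 44.5 and 43.4 (44.0 ± 0.757), and F44A2.t1 on chromosome V had 81.7, with 37.4 and 39.6 (38.5 ± 1.55). The alanine genes thus kept their order in both replicates. The valine gene R04D3.t2 had 87.7, with 42.3 and 46.7 (44.5 ± 3.14), and F35A5.t1 (chrX:3793564-3793636) had 66.3, with 36.4 and 27.9 (32.1 ± 5.98). The isoleucine gene T09B4.t2 on chromosome I had 73.2 with 49.1 in replicate 1 and 24.4 in replicate 2 (36.7 ± 17.4), a 2.01-fold gap between the replicates.

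Genes for charged amino acids gave 9 of the called members. Lysine had 3 of 20 called, aspartate 2 of 14, glutamate 2 of 29, arginine 1 of 23 and histidine 1 of 12. The arginine gene C18A11.t2 (chrX:8036685-8036757, minus strand) had the second highest signal, 91.5, with 40.1 and 52.5 (46.3 ± 8.77). The lysine gene W03G11.t1 had 86.2 and the widest gap of all called members, with 24.9 in replicate 1 and 61.9 in replicate 2 (43.4 ± 26.1). The lysine genes T23F1.t1 on chromosome V (73.3, with 27.9 and 45.3) and M01E5.t1 on chromosome I (60.3, with 37.0 and 26.9) differed in opposite directions. Of the 3 lysine genes, 2 were thus higher in replicate 2. The glutamate gene rte-2 on chromosome I had 79.1, with 35.2 and 41.0 (38.1 ± 4.09), and F12D9.t2 had 76.0, with 42.5 and 31.9 (37.2 ± 7.52). The aspartate gene C06G1.t4 had 71.0, with 24.5 and 44.6 (34.6 ± 14.2), and T14F9.t1 had 53.5, with 27.2 and 44.2 (35.7 ± 11.98). Both aspartate genes were higher in replicate 2. The histidine gene Y65A5A.t4 on chromosome IV had 65.3, with 31.3 and 33.1 (32.2 ± 1.24).

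The other called members were at genes for polar and aromatic amino acids and methionine. The tyrosine genes R11.t1 (75.02, with 39.2 and 35.1) and K09A11.t1 (71.0, with 35.1 and 36.5) made up 2 of 11 tyrosine genes. The threonine genes T25B6.t2 (72.8, with 29.2 and 41.4) and F55G7.t2 (71.7, with 35.1 and 36.2) were 2 of 19. In both pairs the order of the genes changed between the replicates. In the list of replicate 1 alone, no peak was assigned to T25B6.t2. Of 22 serine genes, F42A10.t1 on chromosome III had 68.7, with 35.7 and 28.6, and C53C7.t2 on X had 65.2, with 29.6 and 36.1. The tryptophan gene rtw-5 had 68.3, with 34.02 and 32.8 (33.4 ± 0.871), as 1 of 5 genes. Tryptophan tRNA genes of C. elegans are known as the source of amber suppressors. The glutamine gene T03E6.t1 on chromosome V had 65.5, with 25.1 and 45.1 (35.1 ± 14.1). The methionine gene F22F1.t6 had the lowest signal of the called members, 49.9, with 31.6 and 30.8 (31.2 ± 0.555). Another methionine gene, C25F6.t2, had a higher signal, 52.5, but 39.4 in replicate 1 and 16.98 in replicate 2, and was not called at an IDR of 0.0995. In the list of replicate 1 alone, a peak of 39.4 was assigned to the neighbouring gene C25F6.t3, where it was called. No peak was assigned to C25F6.t2 in that list, so the 39.4 is not a value of this gene alone.

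In the list that compares the replicates, no gene for asparagine, cysteine, phenylalanine or proline was called. With 0 of 20 proline genes, a share of up to 15% is allowed, and with 0 of 8 asparagine, 0 of 8 phenylalanine and 0 of 4 cysteine genes the limits are 37.5%, 37.5% and 75%. The share called among all 319 genes, 9.40%, lies below each of these limits. These genes had peaks all the same. The strongest asparagine member, K02E2.t1 on chromosome V, had 58.3, with 15.1 and 40.7 in the replicates. In the deposited list for the pooled reads it was called, at an IDR of 0.00866. In the list of replicate 2 alone, a weak peak of 3.52 at the proline gene T23F1.t2 was called, at an IDR of 0.00505. The strongest proline member, F02H6.t1 on chromosome IV, had 50.5, with 18.3 and 30.4. F42D1.t1 (cysteine) had 45.7 and Y66D12A.t1 (phenylalanine) had 44.9, with 26.8 and 30.1 and an IDR of 0.0169. Median signals by amino acid ran from 19.7 for tyrosine (13 members) to 47.3 for isoleucine (12 members), and the quartiles of both, 12.8 to 41.7 and 27.7 to 57.3, overlapped. The tyrosine genes thus held 2 called members and the lowest median. For 2 genes RefSeq gave no product, and the only member among them, at C28G1.t5, had 5.89.

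**Figure D3:**
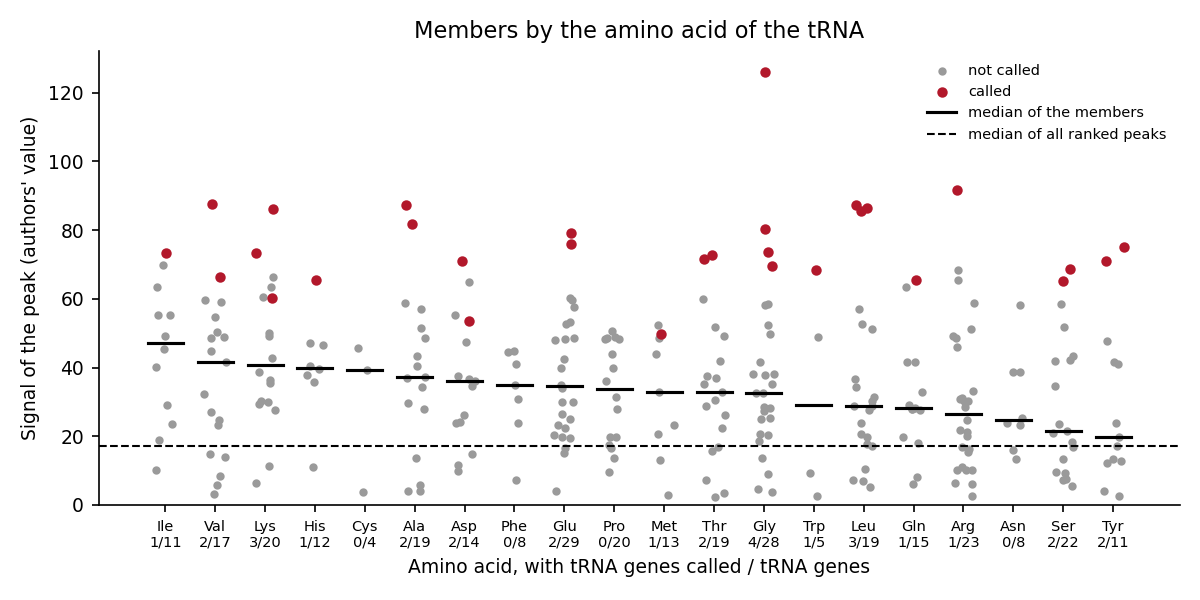
Signal of the members by the amino acid of the assigned tRNA gene, with called members in red, the median of each amino acid as a bar and that of all ranked peaks dashed. Medians lie between 19.7 for tyrosine and 47.3 for isoleucine, and asparagine, cysteine, phenylalanine and proline have no called member.

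Near the threshold, members that were called and members that were not had overlapping pooled signals. T09B4.t2, C06G1.t4 and M01E5.t1 were just inside, with IDRs of 0.00979, 0.00966 and 0.00942. Just outside were T07H6.t2 (alanine, signal 58.7, IDR 0.0102), C33G3.t2 (lysine, 66.3, 0.0103) and C15C6.t1 (arginine, 65.5, 0.0107). The strongest members that were not called were C29F7.t3 (isoleucine) with 69.8, F09B9.t1 (arginine) with 68.4 and C33G3.t2. C29F7.t3 had 22.8 in replicate 1 and 49.1 in replicate 2, and F09B9.t1 had 42.3 and 23.1. Each of them exceeded several called members in pooled signal and was unequal between the replicates. Called members could be as unequal, as W03G11.t1 was with 24.9 and 61.9. C15C6.t1, which was not called, was nearly equal, with 29.4 and 31.0. In the deposited list for the pooled reads, C29F7.t3, F09B9.t1 and C33G3.t2 were called.

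The excess of signal at tRNA genes was present in both replicates, while the order of the genes was shared only in part. Members had a median of 18.1 in replicate 1 and 19.4 in replicate 2, against 9.98 and 10.03 for all ranked peaks, which is 1.81-fold and 1.93-fold. In both replicates at once, 205 members lay above the median of all peaks, or 67.2%, against 27.8% of all ranked peaks, and 26 lay below it in both. Across the 305 members, Spearman's rho between the replicates was 0.420, beside 0.165 across all ranked peaks. Across the 30 called members it was -0.127, beside 0.129 across all 262 called peaks, both selected by an IDR made from the same values. These correlations run across peaks of the same libraries, which are not independent. The replicates were within 1.5-fold of each other at 24 of the 30 called members and over 2-fold apart at 2, W03G11.t1 and T09B4.t2. The IDR that selects called members is made from these values, so this closeness is in part set by the selection. Over all members, 89 were over 2-fold apart.

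**Figure D4:**
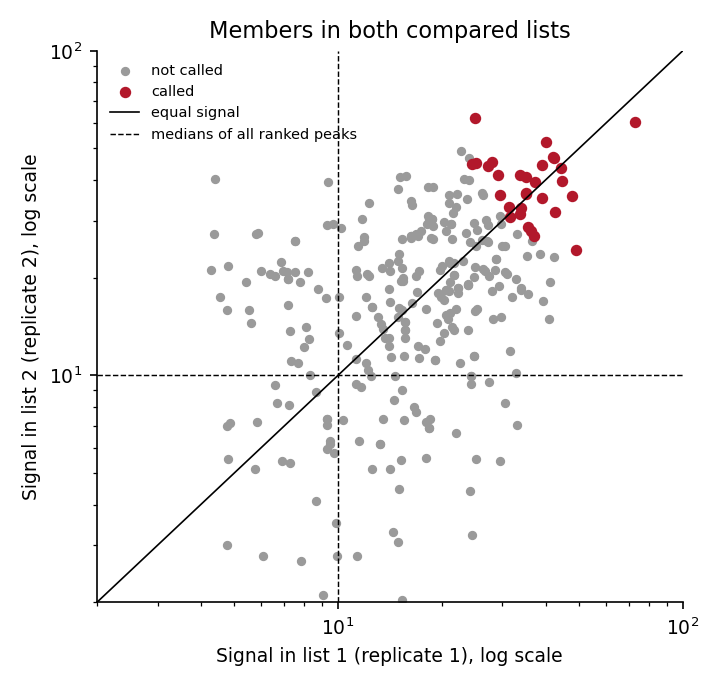
Signal of each member in replicate 1 against that in replicate 2, on log axes, with called members in red, the line of equal values drawn and the medians of all ranked peaks dashed. Called members lie between 24.5 and 72.7 in replicate 1 and between 24.4 and 61.9 in replicate 2, and most are close to the line.

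In the other deposited lists fewer of these genes were called from 1 replicate and slightly more from the pool. A list of 1 replicate cannot hold an IDR between the 2 replicates. The sources used here do not give what each of these lists compared, so their calls are not the same measure. Replicate 1 alone had 221 ranked peaks at these genes, of which 7 were called, or 3.17%, against 0.144% of all its peaks. Replicate 2 alone had 232, of which 12 were called, or 5.17%, against 0.170%. The pooled list had 299, of which 37 were called, or 12.4%, against 0.276%. Of the 30 called members, 27 also passed in the pool. Replicate 1 by itself called 4 of them and replicate 2 by itself 9, and 18 passed in neither. M02F4.t1 was the 1 gene called in every list. T25B6.t2, T14F9.t1 and F22F1.t6 were not called in the pooled list.

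Identical copies of a tRNA gene had unequal signals. Of the 319 genes, 245 shared their sequence with at least 1 other tRNA gene and 74 were unique. Called genes were 24 of the 245 and 6 of the 74, or 8.11% of the unique genes (3.77 to 16.6%). The median signal at unique genes was 27.6. Reads that fall wholly inside a copied gene cannot be placed on 1 copy, and the sources used here do not give how the authors treated such reads. The unique called genes C04A11.t1, F44A2.t1, K09A11.t1, C06G1.t4, rtw-5 and F35A5.t1, with signals from 66.3 to 86.4, have no identical copy, although K09A11.t1, C06G1.t4 and rtw-5 have relatives that differ at 1 base.

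The largest set had 29 copies of 1 glycine gene, of which 17 lay between protein-coding genes and 14 of those had a peak. Their signals ran from 20.5 at Y51H4A.t3, with 12.2 and 10.4 in the replicates, to 126 at M02F4.t1, a 6.15-fold range with a median of 45.0. The 4 called copies were above the 10 others in the pooled signal. In replicate 1 the called copies were at 33.7 or more and the others at 21.99 or less, while in replicate 2 the ranges overlapped, since C12C8.t2 had 37.6 and K09C8.t1 had 35.9. The IDR behind the calls is made from these replicate values, so this order is in part set by the selection. The copies R04E5.t2 and R04E5.t3 shared the same pair of replicate peaks. Among the 10 identical copies of an arginine gene, 5 lay between genes and ran from 11.0 at T01C1.t1 to 91.5 at C18A11.t2, or 8.29-fold. Among 11 copies of a serine gene, 7 lay between genes and the 5 with a peak had a 9.01-fold range, from 7.62 at C53C7.t1 to 68.7 at F42A10.t1. The weak one stands 130 bp from the called gene C53C7.t2, and its value in replicate 1, 29.6, equals that of C53C7.t2. Of 11 copies of a histidine gene 9 lay between genes, of which 4 had no peak of their own and the 5 with one ran from 35.6 at F28H6.t2 to 65.3 at Y65A5A.t4, or 1.83-fold.

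**Figure D5:**
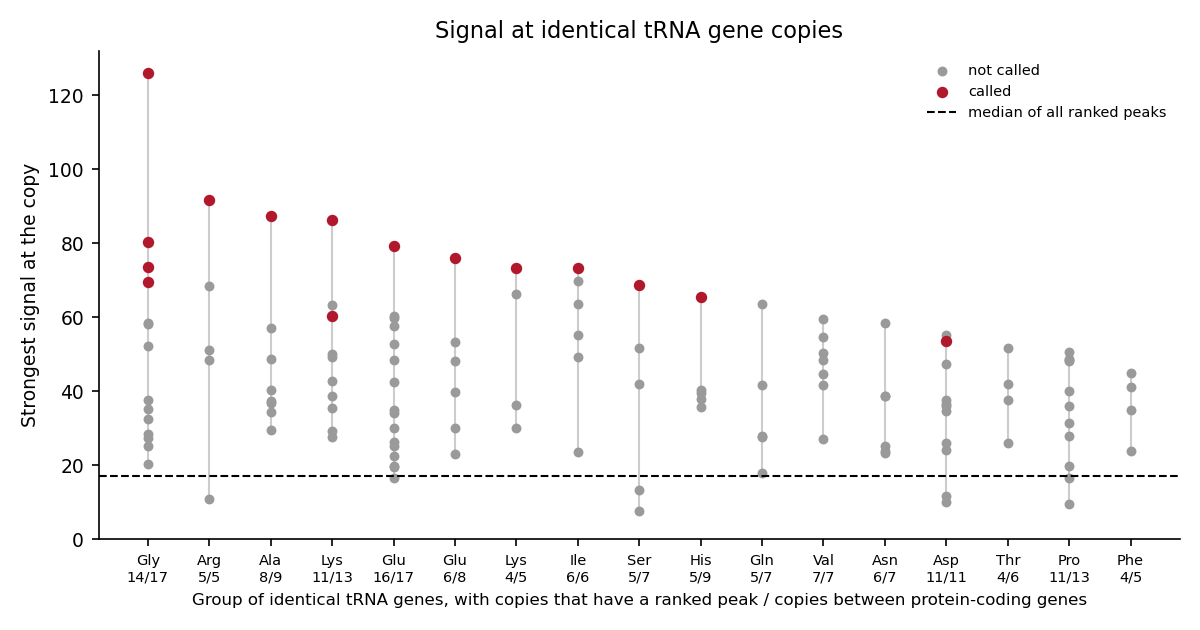
Signal at tRNA genes of identical sequence, one column for each set of identical genes, with called genes in red and the median of all ranked peaks as a dashed line. The glycine set runs from 20.5 to 126 and the histidine set from 35.6 to 65.3.

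The tyrosine genes gave a local case. R11.t1, R11.t2, R11.t3 and R11.t4 are identical and stand in a row on chromosome X, on the same strand. R11.t1, at chrX:16209769-16209852, had 75.02 and was called. R11.t2 had 12.3, with 7.98 and 12.3 in the replicates, below the median of all ranked peaks. R11.t3 had 41.7, with 15.4 and 26.3, and R11.t4 had 41.1, with 32.8 and 10.2. R11.t1 was the highest and R11.t2 the lowest of the 4 in replicate 1, and R11.t1 was the highest in replicate 2 as well. From the protein-coding start of R11.4, R11.t1 lay at 766 bp, R11.t2 at 1307 bp, R11.t3 at 1710 bp and R11.t4 at 2272 bp. R11.t2, the weakest copy in pooled signal, was thus nearer to it than R11.t3 and R11.t4. K09A11.t1, which differs from R11.t2 at 1 base in the sequences shown above, had 71.0. Since the 4 R11 genes are identical, each differs from it at 1 base.

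Among the other printed genes, identical copies had unequal signals as well. F55G7.t2 had 71.7, with 35.1 and 36.2 in the replicates. Its identical copies C24H11.t1 and F14F7.t1, both on chromosome III, had 37.1, with 15.5 and 7.32, and 35.3, with 17.2 and 20.95. Y97E10C.t1, which differs from it at 2 bases, had 16.9, with 14.05 and 12.3. All 3 were below F55G7.t2 in both replicates, and none was called. F55G7.t1, also 2 bases apart, had 32.9, with 4.39 and 27.3, and was not called either. F11A5.t1, 1 base apart, had no peak of its own. R04D3.t2 had 87.7 and its identical copy T25E4.t1 had 24.7, with 7.25 and 13.8 in the replicates. ZK678.t1 had 87.4 and its identical copy C43G2.t1 had 56.96, with 35.3 and 23.3. Both copies were lower in each replicate and were not called. F55G7.t2, R04D3.t2 and ZK678.t1, like R11.t1, were called by an IDR made from these replicate values. Their place above their copies is thus in part set by that selection.

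C06G1.t4 and Y54G2A.t3, which differ at 2 bases, were alike, with 71.0 and 65.01. The second was not called, at an IDR of 0.0118, and its replicate values of 36.7 and 26.04 overlapped with the 24.5 and 44.6 of the first. Relatives of C06G1.t4 that differ at 1 base ran from 9.99 at C06G1.t3 to 55.3 at F22F1.t1, and among them T14F9.t1, with 53.5, was called. The tryptophan gene rtw-5 had relatives that differ at 1 base in sup-21, with 48.9, and sup-24, with 9.29, neither of which was called. Its relatives sup-29 and Y4C6B.t2, also 1 base apart, had no peak of their own. The capitals in the printed sequences cover the same positions in both genes of each pair.

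The letters of the internal promoter were found in called genes at shares near those in the other genes. The strict B box core GGTTCGA was in 21 of 30 called genes, or 70%, in 65.1% of the 232 genes with a peak that was not called, in 61.4% of the 57 genes with no peak of their own and in 64.5% of all 612 nuclear tRNA genes. It was searched on the strand of the gene, as were the other letters. On the opposite strand the strict B box core was in 11 of the 319 genes and the strict A box core in 0. The loose forms, marked by capitals above, are less specific. On that strand the loose B box core was in 76 genes and the loose A box core in 28. Genes with the strict B box core on their own strand were called in 10.1% of 207 cases (6.73 to 15.01%). Genes without it were called in 8.04% of 112 (4.29 to 14.6%), and the intervals overlapped. The loose B box core was in 100% of called genes and 98.5% of all tRNA genes. The strict A box core TNGCNNAG was in 46.7% of called genes against 43.8% of all, and the loose one in 80.0% against 83.8%. A strict match lies within a loose one for the A box and may overlap one for the B box. TTTT within 25 bp downstream, the stop signal of RNA polymerase III, followed 100% of called genes and 98.7% of all. A match describes letters and not a bound site.

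Most of the called members were on chromosome X, which also holds most of these genes. X had 20 of the 30, or 66.7%, and 180 of the 319 genes, or 56.4%. The share of genes called was 11.1% on X (7.31 to 16.5%), 14.8% on I (4 of 27), 10% on V (3 of 30), 5.88% on IV (2 of 34) and 4.55% on III (1 of 22). On II, 0 of 26 were called, which allows up to 11.5%, and the strongest member there was C16C8.t1 with 60.4. The intervals of all chromosomes overlapped. Median signals ran from 26.8 on V to 43.8 on I.

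Protein-coding promoters near these genes were considered next, with a promoter window of 1000 bp upstream to 250 bp downstream of a start. Of the called summits 9 of 30 lay in such a window, or 30%, as did 30.5% of all members and 27.5% of all ranked peaks. The share called in and outside such windows differed between X and the other chromosomes. On X, 2 of 37 members in a promoter window were called and 18 of 132 outside one, or 5.41% and 13.6%. On the other chromosomes 7 of 56 in a window were called and 3 of 80 outside, or 12.5% and 3.75%. The median signals of these 4 classes were 34.4, 33.5, 31.0 and 32.7, close to each other. The difference between X and the other chromosomes was seen after their values were known and was not tested. No shares of all ranked peaks called in these 4 classes stand beside them. Whether the split is particular to these members is therefore unknown. F44A2.t1 was the called gene nearest to a start, 38 bp from that of kvs-3, and C18A11.t2 the farthest, 4556 bp from that of xol-1.

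Genes that stand alone and genes with a near neighbour were both among those called. With no other tRNA gene within 500 bp, 22 of 210 genes were called, or 10.5% (7.02 to 15.4%), with 1 neighbour 7 of 94, or 7.45% (3.65 to 14.6%), and with 2 neighbours 1 of 15. The intervals overlapped. In 5 of the 30 called windows a second tRNA gene was present, beside M02F4.t1, T10B10.t2, T23F1.t1, F42A10.t1 and C53C7.t2, at gaps of 66 to 130 bp. Peaks there cannot be assigned to 1 gene by their width. Called genes had a median length of 72 bp and a median G and C content of 58.3%, equal to those of the genes with a peak that was not called and of those with none.

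tRNA genes inside protein-coding genes and other small RNA genes gave values near these, with no test of the difference. Of 306 peaks at tRNA genes inside protein-coding genes 29 were called, or 9.48% (6.68 to 13.3%), with a median signal of 30.5. Peaks at small nucleolar RNA genes were called in 25 of 263 cases, or 9.51%, with a median of 23.7. Peaks at small nuclear RNA genes were called in 9 of 98 cases, or 9.18%, with a median of 22.004. The intervals of the shares called overlapped across all 4 kinds of gene.

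Protein-coding genes that act on tRNAs had no called peak in their promoter windows. The background is 98 of 19985 protein-coding genes, or 0.490%. Of 31 aminoacyl-tRNA synthetase genes, which load tRNAs with amino acids, 0 were called and 28 had a ranked peak, the strongest at ears-2 with a signal of 47.4, 23.7 and 24.4 in the replicates and an IDR of 0.0528. Of 14 genes of RNA polymerase III and its factors 0 were called, with a highest signal of 33.2. Of 10 genes of tRNA processing 0 were called, with a highest signal of 33.0. With a background of 0.490%, a count of 0 in lists this short is no departure from it.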

How the data were processed

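Peak lists of DAF-8 ChIP-seq from 2 biological replicates were used on the ce11 assembly, per the labels. The signal of each peak is the authors' deposited value, whose scaling the sources used here do not give, and the −log10 of the IDR is a deposited column of the ranked lists. The sources used here do not give the aligner, peak caller, versions or kind of control. Which replicate is the first and which the second compared list was told by value: 52.7% of the first list's intervals and signals are in the list of replicate 1 alone and 0% in that of replicate 2, and 49.4% of the second list's are in that of replicate 2 and 0% in that of replicate 1. No read counts are in the lists, so depth is unknown.

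Each summit within 200 bp was assigned to the nearest tRNA gene of Ensembl release 115 (WBcel235), and 22 mitochondrial genes were left out. RefSeq names matched 612 of 612 genes and gave a product for 607. All peaks ended within the chromosomes. Coordinates count from 1. Called means an IDR of at most 0.01. Shares have 95% Wilson intervals, and a count of 0 has a limit of 3 counts of the total. No test over peaks was made, since peaks of 1 genome are not replicates and there is 1 group. Named genes were the called members by signal, up to 30, the strongest member of each amino acid, and those nearest to each threshold; genes outside this rule (C29F7.t3, F09B9.t1, members of copy sets, neighbours, relatives of called genes, C16C8.t1, ears-2) were chosen after their values were seen. The members and lists were chosen with earlier results of these data known. The search and assignment were tested on simulated data. Python 3.11.15, numpy 2.4.6, pandas 2.3.3, scipy 1.17.1 and matplotlib 3.10.9 were used. Alternatives were the distance, the IDR threshold, the list, each replicate alone, the definition of a gene between genes, 1 peak a gene and unique genes, and, chosen after seeing the data, leaving out promoter windows or repeated peaks. 1 of 11 names in the tRNA processing list was not in the annotation.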

Additional observations from a re-analysis of the deposited data

How the results depend on the processing

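No paired analysis was possible because the replicates form 1 group. Over 15 settings, 65 of 114 values stayed close to those reported and 49 moved. Counts, shares and median signals have no sign, so they could not reverse. The median offset of called summits has a sign and stayed negative under every setting, between -43.2 and -0.25 bp. With summits inside the gene only there were 120 members, 19 called at 19 genes (15.8% of members, 5.96% of genes), a median signal of 41.8 and a median offset of -11.5 bp. Median signal was 37.8 within 100 bp and 26.2 within 500 bp. An IDR of 0.001 left 2 called at 2 genes (0.656% and 0.627%, beside 0.0515% of all ranked peaks), an offset of -43.2 bp and 100% on X, and 0.05 gave 67 at 65 genes (21.97% and 20.4%, beside 0.807%) and -5 bp. In the pooled list the offset was -8.5 bp. Leaving out each replicate gave 7 to 12 called (3.17 to 5.17%), 6 to 12 genes (1.88 to 3.76%), a median signal of 20.5 to 20.6, an offset of -26.5 to -25 bp and 57.1 to 83.3% on X. The IDR of a list of 1 replicate is not one between the replicates. Genes that overlap no protein-coding exon gave 600 members, 58 called at 54 genes and a median of 31.3, and those off a span on the same strand 31.1. The strongest peak per gene gave 37.2. Unique genes gave 69 members, 6 called at 6 genes, a median of 27.6, an offset of -0.25 bp and 83.3% on X. Chosen after seeing the data, leaving out members in promoter windows gave 21 called of 212 members (9.91%) and 85.7% on X. Its share of genes, 6.58%, still counts all 319 genes, so this share could not rise. Also chosen after seeing the data, 1 peak per pair of replicate peaks gave a median of 35.2. The causes of the other shifts were not tested. With unknown depth and 2 replicates, the order of called genes with similar signals was not resolved.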
